A study of Mus musculus with 12 samples.

Results

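Gfi1 and Gfi1b, the paralogous genes of the zinc-finger repressors GFI1 and GFI1B, were followed across an ATAC-seq experiment in which a mouse progenitor line was treated with an inhibitor of the histone demethylase LSD1. The members were every region of open chromatin that overlapped the body of either gene or the 10 kb on each side of it, together with the rows that carry either gene symbol in the authors' deposited tables of differential peaks. This gave 10 regions, 5 at each gene, of 73156 regions in the 12 libraries, and 8 rows of 30120 in the 4 tables used. The table of 6MP against Vehicle was not used. Both genes lie on the minus strand of mm10, Gfi1b (ENSMUSG00000026815) on chromosome 2 and Gfi1 (ENSMUSG00000029275) on chromosome 5.

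GFI1 and GFI1B each carry a SNAG domain, a short N-terminal stretch that docks in the active site of LSD1 (Kdm1a) and so brings the CoREST complex with its histone deacetylases to DNA. Their C-terminal zinc fingers read a site with an AATC core. In bone marrow GFI1 is known for granulocyte and lymphoid development and GFI1B for the erythroid and megakaryocytic lineages, and each protein is known to bind and repress its own gene and that of the other. LSD1 inhibitors are known to separate GFI1 and GFI1B from LSD1.

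The cells were granulocyte-monocyte progenitors from C57BL6 mouse bone marrow that carry ER-HOXA9, a fusion of the oestrogen receptor's hormone-binding part to HOXA9. All groups, untreated ones included, grew with stem cell factor and 0.5 uM beta-estradiol, which keeps the fusion active. Day0 was the untreated culture at the beginning of the experiment. The other groups were taken at day 2: Vehicle received DMSO, LSD1i received 200 nM GSK-LSD1, 6MP received 5 uM mercaptopurine (a purine analogue), CER received 5 uM cerulenin (an inhibitor of fatty acid synthase), and Combo received all 3 drugs. Each group had 2 biological replicates, and whether the line is 1 clone is not given in the sources used here. The libraries held 42651 to 56398 peaks. Markers of the labelled cells were open at the start of 7 of 9 progenitor genes in every library, with Elane uncalled at its start in all 12; the starts of 6 of 6 T and NK cell genes were uncalled in all 12, whereas markers of other lineages were called at the start in all 12 for 2 of 7 erythroid, 3 of 6 megakaryocytic, 2 of 6 mast cell, basophil and eosinophil, 2 of 3 B cell and 1 of 3 dendritic cell genes. Starts called in none of the 12 numbered 1 of 9 for the progenitor list, 3, 2 and 3 for the erythroid, megakaryocytic and mast cell lists, and 1 each for the B cell and dendritic cell lists.

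The sequences around the starts are shown first, because GFI1 and GFI1B read an AATC core and the start of each gene lay inside an open region. They are the 250 bases before to the 50 bases after each RefSeq start (GRCm38.p6), 5′ to 3′ on the gene's own strand, with each AATC on either strand (AATC or GATT) in capitals. The Gfi1b window is chr2:28621933-28622232, and the windows of the upstream and downstream starts of Gfi1 are chr5:107725756-107726055 and chr5:107724294-107724593, all on the minus strand.
Gfi1b: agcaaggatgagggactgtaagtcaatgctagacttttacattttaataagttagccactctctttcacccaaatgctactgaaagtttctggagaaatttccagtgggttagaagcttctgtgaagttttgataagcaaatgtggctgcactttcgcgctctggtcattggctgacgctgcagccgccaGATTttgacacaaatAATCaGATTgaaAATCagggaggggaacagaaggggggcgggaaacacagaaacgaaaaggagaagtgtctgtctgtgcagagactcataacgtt
Gfi1, upstream start: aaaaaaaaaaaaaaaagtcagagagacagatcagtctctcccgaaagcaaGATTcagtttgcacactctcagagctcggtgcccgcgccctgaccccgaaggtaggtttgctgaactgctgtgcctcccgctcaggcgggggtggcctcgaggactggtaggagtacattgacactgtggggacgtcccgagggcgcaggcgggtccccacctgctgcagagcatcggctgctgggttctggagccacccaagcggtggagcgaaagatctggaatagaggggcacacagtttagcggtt
Gfi1, downstream start: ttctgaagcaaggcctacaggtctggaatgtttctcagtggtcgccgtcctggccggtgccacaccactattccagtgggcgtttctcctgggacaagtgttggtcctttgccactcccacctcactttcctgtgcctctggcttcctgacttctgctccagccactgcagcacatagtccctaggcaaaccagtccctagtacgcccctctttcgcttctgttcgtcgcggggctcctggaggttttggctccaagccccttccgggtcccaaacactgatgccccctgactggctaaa

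The Gfi1b window held 4 AATC cores, which began 60, 45, 40 and 33 bases before the start, 2 on each strand. The upstream Gfi1 window held 1 core, which began 200 bases before its start, and the downstream window held 0. Of the 32851 promoters of this length, 73.1% held at least 1 core and 10.1% held 4 or more. The longer AAATCA matched once in the Gfi1b window, over the core that began 33 bases before the start, and in neither Gfi1 window, against 14% of all promoters, and TAAATCAC matched in none of the 3 windows, against 0.578%. GATAA, the core read by GATA factors, was searched after the sequences had been seen: it matched once in the Gfi1b window, 119 bases before the start, and in neither Gfi1 window, while 25.4% of promoters hold it. GGAAG, a core of ETS factors searched in the same way, matched 2 times at the downstream Gfi1 start and in neither other window. Of all promoters, 71.4% held at least 1 match and 37.9% held 2 or more. Matches of letters in these windows do not show binding, and the sequences of the other open regions were not used here.

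Gfi1b had 5 open regions. The start region, chr2:28621450-28622916, had its highest point at a median of 46 bp downstream of the start, just inside the edge of the window printed above. In both 6MP libraries, Day0 replicate 2 and CER replicate 1 that point lay just outside the window. The region also overlapped the predicted gene Gm52548. A gene-body region, chr2:28618051-28619371, was centred 3.0 kb downstream of the start. A pair of regions lay beyond the end of the gene, chr2:28605622-28607204 at 15.9 kb and chr2:28597173-28599963 at 22.6 kb downstream of the start. The upstream region, chr2:28629980-28630622, lay 8.2 kb before it. The rule took the region at 22.6 kb by its edge: the region reached into the 10 kb beside the gene, while its highest summit stood outside them.

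Gfi1 also had 5. A wide region, chr5:107723753-107728079, covered both starts. The gene-body region chr5:107717431-107718670, called 3′ UTR by the authors' deposited table, had its summit 7.6 kb downstream of the upstream start. The regions chr5:107711508-107712173 and chr5:107707932-107708669 lay beyond the end of the gene at 14.0 and 17.5 kb. The last, chr5:107719155-107719393 at 6.5 kb, was called in LSD1i replicate 2 alone, with a pileup of 108 fragments, and was not tested. Over the 10 regions and 12 libraries, 105 of 120 possible calls were made: 7 regions were called in all 12 libraries, the Gfi1b region 8.2 kb upstream was uncalled in Day0 replicate 2 and CER replicate 2, and the Gfi1 region at 17.5 kb was uncalled in both 6MP libraries.

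In both GSK-LSD1 groups the gene-body region of each gene, both Gfi1b regions beyond the gene's end and the Gfi1 region at 17.5 kb opened. At the Gfi1 start and at 14.0 kb no difference from Vehicle was detectable in the highest summit of the region. The authors' deposited table nevertheless lists the Gfi1 start as higher in Combo (log2 fold 0.48, FDR 0.00868). In LSD1i, 4 of the 5 Gfi1b regions and 2 of the 4 Gfi1 regions tested passed limma at an adjusted p of 0.05, all of them higher. In Combo, 3 of 5 and 2 of 4 passed, all higher. No member region passed that test in 6MP or CER alone. Values are summit signals: the pileup of fragments at a peak's highest summit over the library's smallest local background, on a log2 scale and centred so that all libraries share a median over the 33368 regions called in all 12. A signal at a region cannot tell more open copies per cell from more cells with the region open. With 2 libraries a group, an exact test of 1 region cannot go below p = 0.333, so the tests pool the spread over regions.

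**Figure D1:**
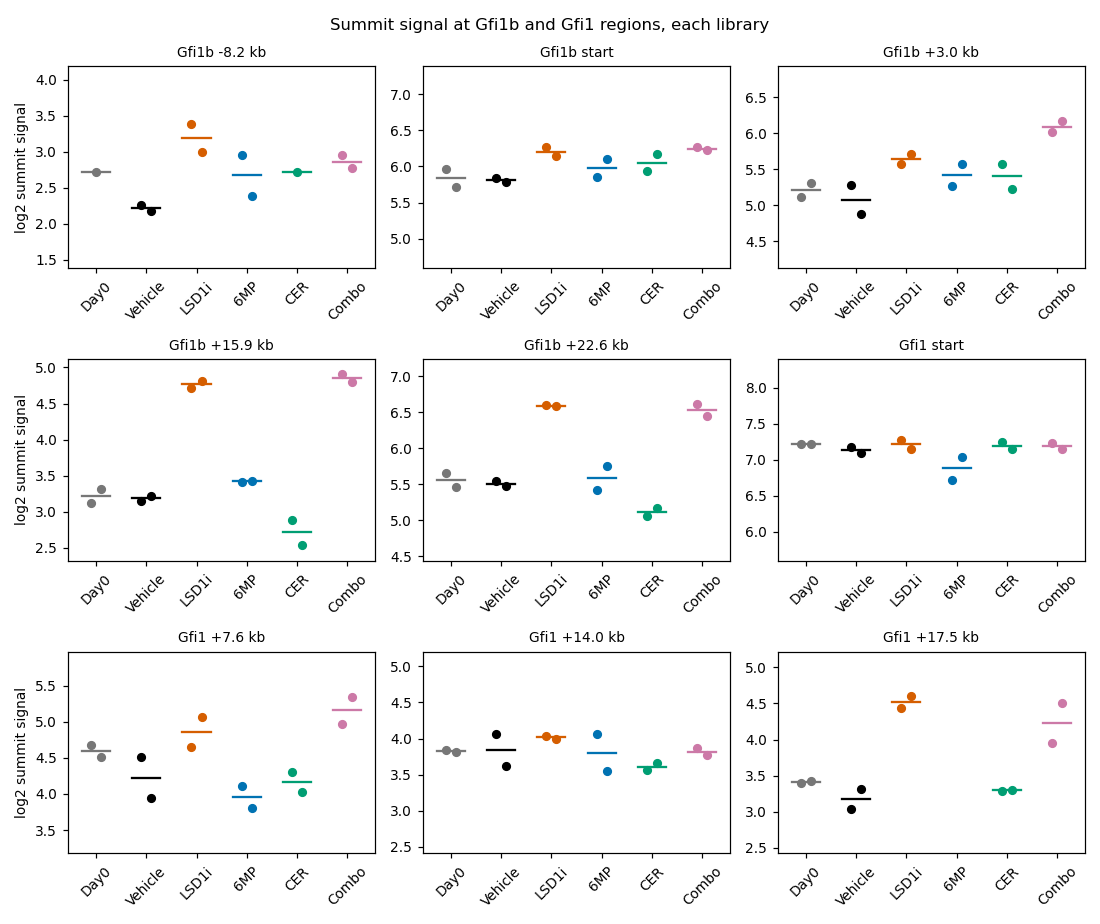
Log2 summit signal (y axis) in each library (points) and its group mean (bars) at the 9 Gfi1b and Gfi1 regions called in at least 10 libraries, by group (x axis), every panel spanning the same range; panel names give the distance of the summit downstream of the upstream start, with a minus sign for upstream. LSD1i and Combo stand apart at the Gfi1b regions at 15.9 and 22.6 kb and at the Gfi1 region at 17.5 kb, where 6MP has no points, and the Gfi1 start panel is nearly level.

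The largest difference among the members was at the Gfi1b region 15.9 kb downstream of the start. Its summit pileups were 37 and 24 fragments in Day0, 39 and 43 in Vehicle, 101 and 127 in LSD1i, 26 and 37 in 6MP, 35 and 17 in CER and 158 and 150 in Combo. The 4 libraries with GSK-LSD1 held more fragments than any of the other 8, with no overlap, and stood above them after centring too. The share of all regions with such a split over 12 libraries was not counted. For the day-2 libraries alone it was 5.77% of 34229 regions. As log2 signal, the groups ranked Combo 4.85 ± 0.08, LSD1i 4.77 ± 0.06, 6MP 3.42 ± 0.01, Day0 3.22 ± 0.14, Vehicle 3.18 ± 0.05 and CER 2.71 ± 0.25 (SD, n = 2 each). Combo overlapped LSD1i and Day0 overlapped Vehicle, and the other neighbours in this order did not overlap. The difference from Vehicle was 1.58 ± 0.23 in LSD1i (SE; limma, adjusted p = 6.53e-06), a 2.99-fold signal, and 1.66 ± 0.23 in Combo (adjusted p = 1.66e-06), a 3.17-fold signal. Among libraries whose names end in R, Combo replicate 2 stood at 4.79 against 3.15, 3.43 and 2.89 in Vehicle, 6MP and CER. Among those whose names have no ending, LSD1i and Combo stood at 4.72 to 4.90 against 3.22, 3.41 and 2.53. The Day0 libraries, whose names both end in P, stood at 3.12 and 3.32.

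The Gfi1b region 22.6 kb downstream was among the higher signals at the gene and followed the same split. Pileups were 215 and 106 in Day0, 205 and 205 in Vehicle, 371 and 434 in LSD1i, 105 and 186 in 6MP, 158 and 106 in CER and 517 and 473 in Combo. The 4 GSK-LSD1 libraries again exceeded all others, a split not counted over all regions for 12 libraries. The signal differed from Vehicle by 1.08 ± 0.15 in LSD1i (limma, adjusted p = 2.20e-06) and by 1.02 ± 0.15 in Combo (adjusted p = 4.10e-06), about a doubling, with fold values of 2.12 and 2.03. CER stood lowest of the 6 groups, at 5.12 ± 0.08 against 5.51 ± 0.05 in Vehicle (SD, n = 2), a difference of -0.39 ± 0.15 whose adjusted p was 0.222 by limma.

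At the Gfi1b gene-body region, 3.0 kb downstream of the start, Combo stood above LSD1i. Pileups were 147 and 95 in Day0, 170 and 136 in Vehicle, 182 and 237 in LSD1i, 94 and 163 in 6MP, 224 and 110 in CER and 340 and 390 in Combo. After centring, the Combo libraries lay at 6.01 and 6.17, LSD1i at 5.57 and 5.71, and the other day-2 libraries between 4.88 and 5.57, so that LSD1i only just cleared them. The region opened by 0.56 ± 0.16 in LSD1i (limma, adjusted p = 0.0205) and by 1.01 ± 0.16 in Combo (adjusted p = 1.56e-05); the LSD1i call was lost when either LSD1i library or Vehicle replicate 2 was dropped (adjusted p of 0.0835 to 0.243). The difference of Combo from LSD1i was 0.45 ± 0.16 and did not pass (adjusted p = 0.219), with a 95% interval of 0.13 to 0.77; in a fit of those 4 libraries alone it was 0.48 and passed (adjusted p = 0.00344). The authors' deposited table lists this region for Combo, at a log2 fold of 1.21, and has no row for it under LSD1i.

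The Gfi1b start was already open in Vehicle and had the smallest differences from it among the Gfi1b regions in LSD1i and in Combo. Its signal was 5.71 and 5.97 in Day0, 5.84 and 5.79 in Vehicle, 6.27 and 6.14 in LSD1i, 5.85 and 6.11 in 6MP, 5.94 and 6.17 in CER and 6.26 and 6.23 in Combo. LSD1i and Combo did not overlap Vehicle, and LSD1i overlapped CER. Neither difference from Vehicle passed on its own: 0.39 ± 0.15 in LSD1i (limma, adjusted p = 0.106) and 0.43 ± 0.15 in Combo (adjusted p = 0.0600). The Combo difference passed in 5 other fits, among them centring on a curve over mean signal in place of 1 median (adjusted p = 0.00153), which also took the LSD1i difference to 0.53 (adjusted p = 0.00361).

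The Gfi1b region 8.2 kb upstream was the faintest, with pileups of 18 to 41 fragments where it was called. It held 21 in each Vehicle library, 40 and 36 in LSD1i and 41 and 37 in Combo. LSD1i differed from Vehicle by 0.97 ± 0.30 (limma, adjusted p = 0.0401), a call lost when any 1 of the 4 libraries was left out (adjusted p of 0.0998 to 0.337), and Combo by 0.64 ± 0.30 (adjusted p = 0.197).

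Gfi1 showed its opened regions at the 3′ end of the gene and beyond it. At 17.5 kb downstream of the upstream start, pileups were 45 and 26 in Day0, 36 and 46 in Vehicle, 83 and 110 in LSD1i, 46 and 29 in CER and 82 and 123 in Combo, with no call in 6MP. The 4 GSK-LSD1 libraries were the highest of the 10 called, and the share of all regions with such a split was not counted. The difference from Vehicle was 1.35 ± 0.23 in LSD1i (limma, adjusted p = 0.000147) and 1.06 ± 0.23 in Combo (adjusted p = 0.00204), and without Combo replicate 2 the latter was 0.78 (adjusted p = 0.160).

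The gene-body region at 7.6 kb, the 3′ UTR of the authors' annotation, held pileups of 109 and 55 in Day0, 100 and 71 in Vehicle, 96 and 151 in LSD1i, 42 and 48 in 6MP, 93 and 48 in CER and 166 and 220 in Combo. As log2 signal, LSD1i replicate 1 at 4.65 lay just above Vehicle replicate 1 at 4.51 and inside the range of Day0, 4.51 to 4.68. The difference from Vehicle was 0.63 ± 0.19 in LSD1i (limma, adjusted p = 0.0390) and 0.93 ± 0.19 in Combo (adjusted p = 0.00097). The LSD1i call ended under 8 alternatives and the Combo call under 3, among them without Combo replicate 2, where the difference was 0.75 (adjusted p = 0.0787).

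At the Gfi1 start, the highest signal of all members, the libraries lay between 6.72 and 7.27. Pileups at its highest summit were 634 and 360 in Day0, 637 and 628 in Vehicle, 591 and 643 in LSD1i, 258 and 451 in 6MP, 714 and 417 in CER and 797 and 766 in Combo. After centring, both 6MP libraries, at 6.72 and 7.04, lay below the rest, and Day0, at 7.22 in each library, lay above Vehicle, at 7.18 and 7.09. The difference from Vehicle was 0.08 ± 0.18 in LSD1i (limma, adjusted p = 0.832; 95% interval -0.28 to 0.44) and 0.06 ± 0.18 in Combo (adjusted p = 0.881; -0.30 to 0.42). Differences inside those intervals were not detectable here. The region at 14.0 kb, with pileups of 34 to 77 fragments, also stayed within its spread: 0.18 ± 0.23 in LSD1i (adjusted p = 0.688) and -0.02 ± 0.23 in Combo (adjusted p = 0.970).

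**Figure D2:**
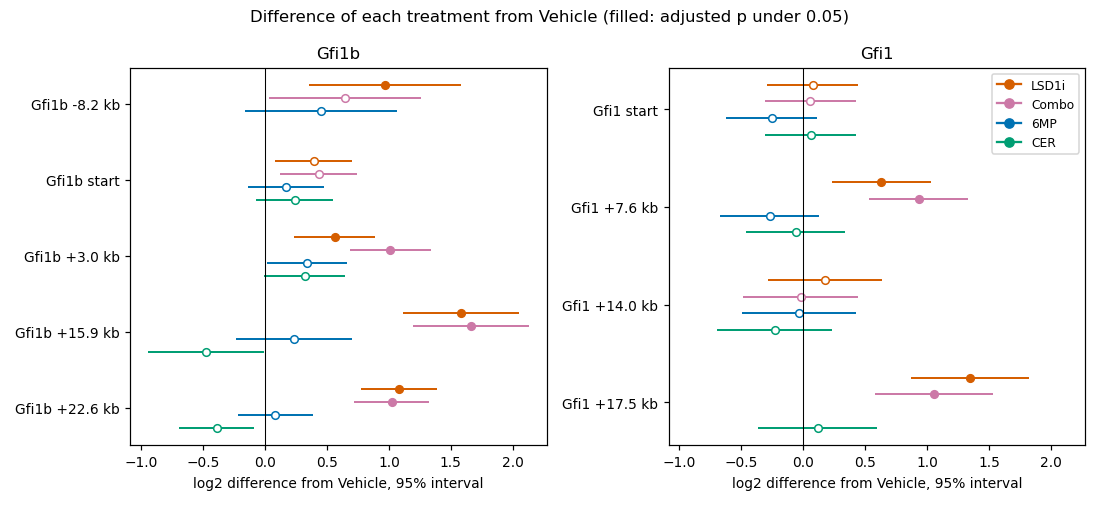
Log2 difference of summit signal from Vehicle (x axis) with 95% intervals from limma at each Gfi1b (left) and Gfi1 (right) region (y axis), for LSD1i, Combo, 6MP and CER; filled points have an adjusted p under 0.05. Filled points belong to LSD1i and Combo alone, and all lie to the right of 0; 6MP has none at the Gfi1 region at 17.5 kb and CER none at the Gfi1b region 8.2 kb upstream, since not every library was called there.

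The wide Gfi1 start region held several summits. One lay 168 to 261 bp downstream of the upstream start in all 12 libraries and had signals of 7.27 and 7.15 in LSD1i and 7.23 and 7.09 in Combo against 7.18 and 7.09 in Vehicle. Summits 35 to 119 bp upstream were called in both Combo and both 6MP libraries and in replicate 2 of each other group. They were the region's highest only in the 2 Combo libraries, at 7.24 and 7.14. Further summits were called 395 to 898 bp upstream of the start in 9 libraries, at positions that differed from library to library. The highest of them stood at 7.11 and 7.07 in Combo, 6.92 and 6.87 in LSD1i and 6.87 and 6.67 in Day0. They stood at 6.31 and 6.57 in 6MP and 6.55 in Vehicle replicate 1, with none in CER or Vehicle replicate 2. Their positions differ, so these are not values of 1 matched summit. Another lay 1409 to 1514 bp downstream in all 12 libraries, inside the window of the downstream start except in 6MP replicate 1, where it lay just outside. Its signal was 6.93 and 6.74 in Combo, 6.65 and 6.68 in LSD1i, 6.49 and 6.66 in 6MP, 6.71 and 6.45 in CER, 6.58 and 6.50 in Vehicle and 6.58 and 6.48 in Day0. There the Combo values lay above the others, Combo replicate 2 by little over CER replicate 1. These summits were looked at after the values of the region were seen and were not tested.

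**Figure D3:**
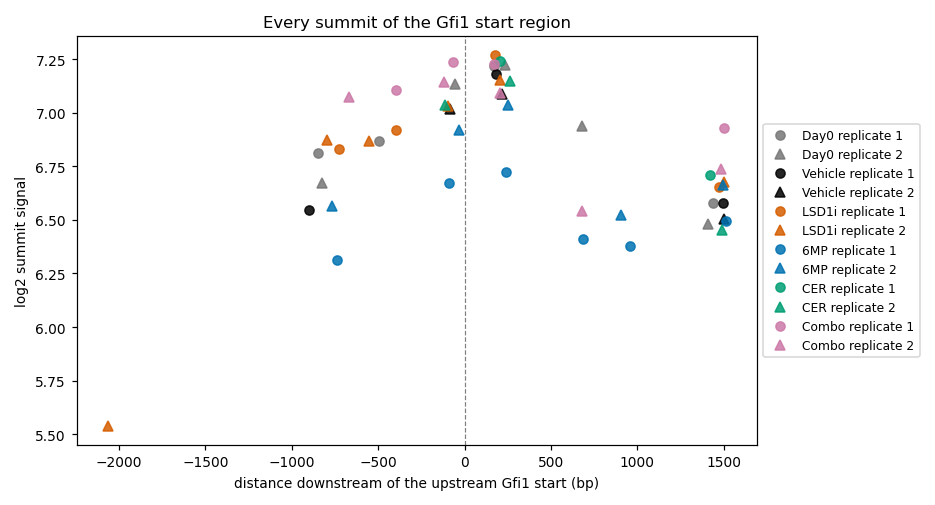
Log2 summit signal (y axis) of every summit called in the Gfi1 start region, each at its own distance in bp downstream of the upstream start (x axis, negative values upstream, dashed line at the start), coloured by group with a circle for replicate 1 and a triangle for replicate 2. The summits 168 to 261 bp downstream span 6.72 to 7.27 with both 6MP libraries lowest, and those 395 to 898 bp upstream are scattered in position.

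The counts stood above the background of the same fits. For LSD1i against Vehicle, 6 of 9 member regions tested opened and 0 closed, while 4.6% of the 41324 regions tested opened and 2.44% closed. For Combo against Vehicle, 5 of 9 opened and 0 closed, against 5.34% opened and 3.45% closed of 42679. The median difference of the members tested was 0.63 in LSD1i and 0.93 in Combo, beside -0.04 and -0.09 over all regions tested. These comparisons share the Vehicle libraries. Without centring, scaled only to each library's smallest background, the count fell to 1 of 9 in LSD1i (the Gfi1b region at 15.9 kb, 1.43, adjusted p = 0.0180) and 2 of 9 in Combo, the median over all regions stood at -0.19 and 0.13, and 180 regions opened and 35 closed in LSD1i and 1286 and 39 in Combo, beside 1900 and 1007 and 2278 and 1472 with centring. Leaving out Vehicle replicate 2, LSD1i replicate 1 or LSD1i replicate 2 left 3 of 9 in LSD1i, and leaving out Combo replicate 2 left 3 of 9 in Combo.

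The 2 other treatments and the day-0 comparison gave no call among the members. For CER against Vehicle, 0 of 8 tested passed by limma, beside 0.648% of 38410 regions in either direction. At an unadjusted p under 0.05 there were 3 of the 8, beside 4812 of the 38410 regions. Those 3 were the Gfi1b regions at 22.6 kb (-0.39), 15.9 kb (-0.47 ± 0.23, adjusted p = 0.381) and 3.0 kb (0.32 ± 0.16, adjusted p = 0.393), which did not share a sign. For 6MP against Vehicle, 0 of 8 passed, beside 0.00269% of 37145 regions. An unadjusted p under 0.05 was met by 1 of the 8, beside 2132 of the 37145 regions. It was the Gfi1b region at 3.0 kb (0.34 ± 0.16, adjusted p = 0.815, and -0.12 without centring). For Vehicle against Day0, 0 of 8 passed, beside 0.2% of 39427, and 0 had an unadjusted p under 0.05, beside 4627 of the 39427. Both Day0 library names and no day-2 name end in P, so the day and that ending cannot be told apart there. For Combo against LSD1i, 0 of 9 passed, beside 0.298% of 43671. The gene-body region of Gfi1b described above was the 1 of 9 with an unadjusted p under 0.05, beside 4832 of the 43671. The 6MP and CER groups each held 1 of the 2 libraries with the lowest median signal, 6MP replicate 1 at 4.08 and CER replicate 2 at 4.52 before centring, the others lying between 4.82 and 5.42; without those libraries the counts of 6MP and CER were again 0.

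Set against all day-2 libraries without GSK-LSD1, LSD1i and Combo together gave the narrowest errors. The 4 libraries lay above all 6 others at 4 of the 7 member regions called in every one of them, beside 5.77% of the 34229 such regions. At the Gfi1b region at 15.9 kb, the inhibited libraries averaged 4.81 ± 0.07 (SD, n = 4) and the others 3.11 ± 0.34 (n = 6). At 22.6 kb the means were 6.56 ± 0.08 and 5.41 ± 0.25. At the Gfi1b gene body they were 5.87 ± 0.27 and 5.30 ± 0.26 and the ranges met at 5.57, and at the Gfi1 gene body 5.01 ± 0.29 and 4.12 ± 0.25. An exact two-sided permutation test gave p = 0.00952 at each of these 4, the smallest that 4 against 6 can give, p = 0.0190 at the Gfi1b start, p = 0.181 at the Gfi1 start and p = 0.248 at the Gfi1 region at 14.0 kb; these 7 p-values are not adjusted. By limma across all regions, 5 of 7 passed, all higher, beside 10.3% opened and 15.5% closed of 34229 (3534 and 5322 regions, 2930 and 43 without centring, and 4605 and 3655 with the curve): the Gfi1b regions at 15.9 kb (1.70 ± 0.15, adjusted p = 1.05e-11), 22.6 kb (1.15 ± 0.09, adjusted p = 3.00e-12), 3.0 kb (0.57 ± 0.10, adjusted p = 5.20e-05) and the start (0.28 ± 0.10, adjusted p = 0.0301), and the Gfi1 gene body (0.89 ± 0.13, adjusted p = 8.67e-07). The Gfi1b start lost its call when LSD1i replicate 1 or 2, CER replicate 1, or Combo replicate 1 or 2 was left out (adjusted p of 0.0636 to 0.128). The Gfi1 start stood at 0.13 ± 0.11 (adjusted p = 0.410), and at 0.18 without 6MP replicate 2 (adjusted p = 0.0449).

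**Figure D4:**
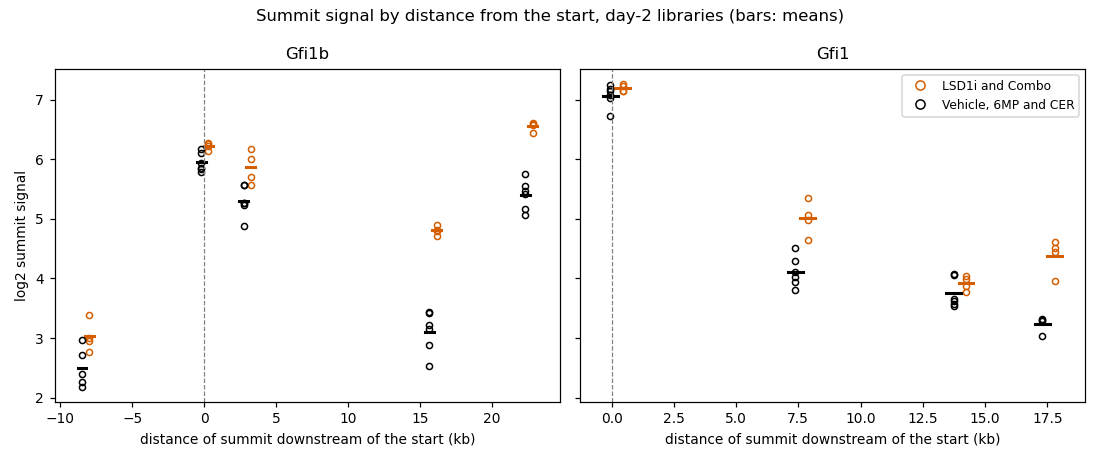
Log2 summit signal (y axis) of the day-2 libraries (circles; bars are means) at each member region by the distance of its median summit downstream of the upstream start in kb (x axis), for Gfi1b (left) and Gfi1 (right); LSD1i and Combo in orange, Vehicle, 6MP and CER in black, drawn slightly apart. The starts have the highest signals in the black libraries, and the gap between the colours is widest at 15.9 kb for Gfi1b and at 17.5 kb for Gfi1. At 17.5 kb neither 6MP library was called, so black there is Vehicle and CER alone.

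The authors' own differential analysis, for which the submitters' notes name DiffBind, a tool that counts reads over whole regions, listed both genes as higher in each drug comparison that holds GSK-LSD1. In the authors' deposited table of LSD1i against Vehicle, 3 rows carry a symbol of the pair: the Gfi1b start (log2 fold 0.36, FDR 0.00728), the Gfi1 3′ UTR (0.48, FDR 0.0181) and the Gfi1b region 8.2 kb upstream (0.66, FDR 0.0304). The table as a whole lists 6.81% of 51639 regions as opened and 34.3% as closed, the number tested having been recovered from its ranks. In the authors' deposited table of Combo against Vehicle, 5 rows do: the Gfi1b gene body (1.21, FDR 2.12e-05), the Gfi1 3′ UTR (1.08, FDR 2.21e-05), the Gfi1b start (0.66, FDR 0.00705), the Gfi1 start (0.48, FDR 0.00868) and the Gfi1b region 8.2 kb upstream (0.81, FDR 0.0294), beside 12.8% opened and 2.14% closed of 53245. The authors' deposited tables of Vehicle against Day0 (1.87% of 39854 listed in either direction) and CER against Vehicle (0.365% of 47097) hold 0 rows for either gene.

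Of the 4 regions beyond the ends of the genes, 3 are listed in the authors' deposited tables under other nearby genes, and the Gfi1 region at 14.0 kb has no row in the tables used. The Gfi1b region at 15.9 kb is listed under Gm22824, at a log2 fold of 1.78 in LSD1i (FDR 6.00e-26) and 1.8 in Combo (FDR 3.62e-19) in the authors' deposited tables. The Gfi1b region at 22.6 kb is listed there under Gm22675, at 0.84 (FDR 0.000766) and 1.2 (FDR 1.78e-07). The Gfi1 region at 17.5 kb is listed there under 4930428O21Rik, at 0.85 (FDR 2.86e-05) and 1.26 (FDR 4.02e-06). All 14 rows, those under other names included, are higher in the authors' tables and in the summit signal. The summit difference exceeded the authors' fold in 5 of 6 LSD1i rows and fell below it in 8 of 8 Combo rows. The measures lay farthest apart in LSD1i at the Gfi1 region at 17.5 kb, where the authors' deposited fold of 0.85 stood beside a summit difference of 1.35 ± 0.23, and in Combo at the Gfi1 start, where the authors' deposited fold of 0.48 stood beside a summit difference of 0.06 ± 0.18.

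**Figure D5:**
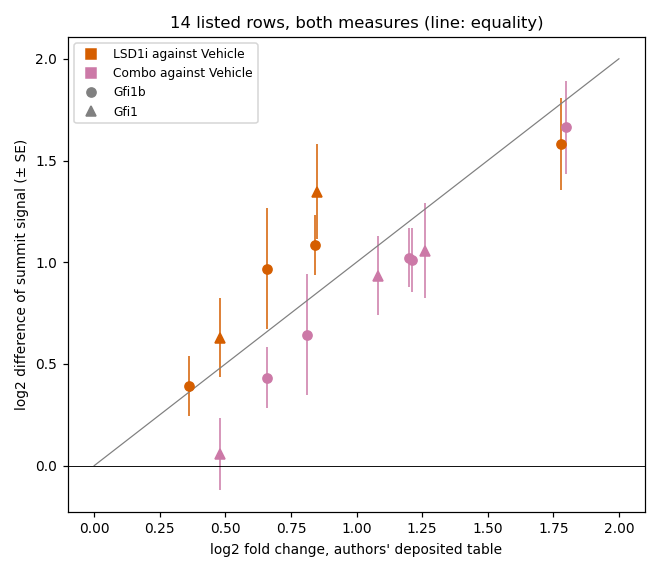
Log2 fold change in the authors' deposited tables (x axis) and log2 difference of summit signal with its SE from limma (y axis) for the 14 rows at Gfi1b (circles) and Gfi1 (triangles); the line marks equal values. LSD1i rows lie on or above the line except the one at 1.78, Combo rows lie below it, and the triangle nearest 0 on the y axis is the Gfi1 start.

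Genes known to work with, to be bound by or to regulate GFI1 and GFI1B were described from fixed lists, each gene taken with all regions over its body and the 10 kb beside it. The first list held 26 genes of the LSD1-CoREST complex, of SNAG-domain proteins and of partners of either. Of these, 25 had a region tested in LSD1i against Vehicle. There 3 of 95 regions opened (3.16%) and 8 closed (8.42%), beside 4.6% and 2.44% of all regions tested. The single region of Snai2, the gene of a SNAG-domain repressor of the Snail family, opened by 1.57 ± 0.30 in LSD1i (limma, adjusted p = 0.000575) and by 1.17 ± 0.30 in Combo (adjusted p = 0.00861). Of the 3 regions of Snai3, another Snail family member, 2 closed in LSD1i, the stronger by -0.81 ± 0.17 (limma, adjusted p = 0.00222), and 1 of 4 regions of Rcor1, which encodes CoREST itself, closed by -0.48 ± 0.15 (adjusted p = 0.0385). In Combo against Vehicle, 2 of 97 regions opened (2.06%) and 4 closed (4.12%), beside 5.34% and 3.45% of all regions tested. The 4 were among 35 tested at Gse1, which encodes a CoREST-associated protein. The median difference of the list was -0.15 in LSD1i and -0.18 in Combo, beside -0.04 and -0.09 over all regions.

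Among 39 genes known as GFI1 targets, 37 had a region tested in LSD1i against Vehicle, and 7 of 120 regions opened (5.83%) and 5 closed (4.17%). Without the members, 1 of 111 opened (0.901%) and 5 closed (4.5%), beside the 4.6% and 2.44% of all regions. Of the 7, 6 were the Gfi1 and Gfi1b regions described above, since both genes are on the list, and the remaining one was 1 of 6 tested at Socs3, a cytokine-signalling inhibitor (0.49 ± 0.16, adjusted p = 0.0477 by limma). The 5 closed regions lay at 5 genes, among them 1 of 9 regions of the HOXA9 cofactor gene Meis1 (-1.02 ± 0.16, adjusted p = 2.44e-05), 1 of 3 of the granulocyte factor gene Cebpa (-0.47 ± 0.14, adjusted p = 0.0334), 1 of 4 of Id1, an inhibitor of bHLH factors (-0.59 ± 0.15, adjusted p = 0.0132), and 1 of 3 of Csf3r, the G-CSF receptor gene (-0.66 ± 0.21, adjusted p = 0.0468). In Combo against Vehicle, with the members left out, 0 of 113 regions opened and 9 closed (7.96%) at 6 genes, beside 5.34% and 3.45% of all regions. Among them were 4 of 9 regions of Meis1, 1 of 5 of Irf8 (-1.08 ± 0.26, adjusted p = 0.00524), a monocyte and dendritic cell factor, and 1 of 4 of Cebpb (-0.68 ± 0.15, adjusted p = 0.00192). Without the members, the list's median was -0.13 in LSD1i and -0.16 in Combo.

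Of 13 genes of factors known to bind the Gfi1 and Gfi1b loci or to act beside them, 12 had a region tested, and 0 of 65 regions opened and 8 closed (12.3%) in LSD1i against Vehicle, beside 4.6% and 2.44% of all regions. Of 14 regions tested at Runx1, the gene of a core-binding factor subunit, 3 closed in LSD1i and 1 in Combo. The strongest, the same region in both, closed by -1.03 ± 0.24 (limma, adjusted p = 0.00414) in LSD1i and by -1.31 ± 0.24 in Combo (adjusted p = 0.000175). At Gata2, the gene of a progenitor GATA factor, 2 of 5 regions closed in LSD1i and 1 of 5 in Combo, the strongest by -0.48 ± 0.15 (adjusted p = 0.0406) and -0.47 ± 0.15 (adjusted p = 0.0388), and 1 of 5 regions of Ldb1, the gene of an adaptor of GATA and LIM proteins, closed by -0.49 ± 0.14 (adjusted p = 0.0249) and -0.56 ± 0.14 (adjusted p = 0.00679). Erg, an ETS factor, had a region that closed in LSD1i (-0.55 ± 0.17, adjusted p = 0.0373) and another that opened in Combo (0.61 ± 0.15, adjusted p = 0.00609), the single opened region of 73 tested there (1.37%), while 4 closed (5.48%), beside 5.34% and 3.45% of all regions. These lists overlap: Cebpa stands on the last 2.

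Regions of marker genes were counted in the same 2 comparisons with Vehicle, where 4.6% of all regions opened and 2.44% closed in LSD1i and 5.34% and 3.45% in Combo. Of the progenitor markers, 0 of 28 regions opened and 1 closed in LSD1i, at Cebpa, and 1 of 28 opened and 0 closed in Combo, at the myeloperoxidase gene Mpo (0.59 ± 0.17, limma adjusted p = 0.0199). Of the erythroid markers, 0 of 13 regions opened or closed in either. Of the megakaryocytic markers, 0 of 20 did in LSD1i, and in Combo 3 of 21 closed (14.3%) and 0 opened, 2 at Gp9 (the stronger -0.79 ± 0.14, adjusted p = 0.000147) and 1 at Itga2b (-0.74 ± 0.17, adjusted p = 0.00238). Of the mast cell, basophil and eosinophil markers, 0 of 13 opened and 3 closed (23.1%) in LSD1i, and in Combo 1 opened, at the mast cell protease gene Cpa3 (0.69 ± 0.15, adjusted p = 0.00239), and 1 closed. Of the dendritic cell markers, 6 of 29 regions opened (20.7%) and 0 closed in LSD1i, and 3 of 30 opened (10%) and 1 closed (3.33%) in Combo. At Zbtb46, a dendritic cell factor gene, 3 of 8 regions opened in LSD1i and 1 of 9 in Combo, the strongest by 1.32 ± 0.28 (adjusted p = 0.00176) and 1.57 ± 0.28 (adjusted p = 0.000137). At Flt3, a cytokine receptor gene, 1 of 10 regions opened in LSD1i (0.46 ± 0.14, adjusted p = 0.0372) and another closed in Combo (-0.96 ± 0.21, adjusted p = 0.00146). Of the T and NK cell markers, 1 of 11 opened and 1 closed in LSD1i, and 1 of 12 opened and 1 closed in Combo. Of the B cell markers, 0 of 17 opened or closed in LSD1i, and 0 of 19 opened and 1 closed in Combo. The part of any of these in the differences at Gfi1 and Gfi1b was not tested.

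Among the 8590 open regions within 1 kb of a protein-coding start that were called in all 12 libraries, those most like the Gfi1b start across the libraries were at Zfp846 (Pearson r = 0.90), Diaph2 (0.880), Plekha1 (0.875), Lalba (0.866) and Tarm1 (0.858). Their means were higher in LSD1i and Combo than in the other 4 groups, with Tarm1 at 5.32 in LSD1i and 5.62 in Combo against 3.67 in Vehicle. Those most like the Gfi1 start were at Pced1a (0.905), Msantd2 (0.887), Rnf141 (0.883), Ibtk (0.876) and Usp16 (0.869). For these 5 the lowest group mean was that of 6MP, as at the Gfi1 start, with Pced1a at 6.88 in 6MP and 7.09 in Vehicle. These promoters were picked for likeness to the start's own profile, so their group order reflects that choice and is no separate result. The 12 points share libraries, groups and depth, and no p is given.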

How the data were processed

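ATAC-seq was measured in 12 libraries, 2 for each of 6 groups. Per the submitters' processing notes, the authors used Trimmomatic 0.38, Bowtie2, SAMtools 1.9, Picard 2.18.26, MACS2 2.1.2, DiffBind and mm10. Each library's peaks were called separately, and the deposited peak lists give, per summit, a ratio (fold enrichment over local background), a −log10 p and q, and a score. The authors' deposited tables give log2 levels, a log2 fold change and p-value with FDR per region, to an FDR of 0.05.

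From each summit's fold and p the pileup and background were recovered, 100% of pileups being whole within 0.001 in −log10 p. Overlapping peaks were joined into regions; a region's value is log2 of its highest summit's pileup over the library's smallest background (2.44 to 4.55 fragments), centred on the median over regions called in all libraries. Sequencing depth as read totals was not used here. Limma 3.58.1 (R 4.3.3) fitted 6 group means to all libraries, an uncalled library being left out of its region, with a trend on mean signal; regions called in every library of a comparison were tested, with Benjamini-Hochberg adjustment over all of them at 0.05. The fit was tested on simulated data. Permutation tests used SciPy; their p-values are not adjusted over the members, a change from the plan. Motifs were searched in RefSeq promoters only.

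The members, lists and tests were chosen with earlier results of these data known. Regions named are all members; list genes are named where a region passed, though not every such gene is reported here; likeness names the 5 highest r a gene. Replicate numbers did not pair the libraries: same-numbered deviations correlated between -0.34 and 0.25. Alternatives were depth scaling, trend centring, fewer libraries, stricter calls, a replicate block, name endings and each replicate left out.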

Additional observations from a re-analysis of the deposited data

How the results depend on the processing

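All 16 called differences kept their direction in 235 refits, and 37 of those refits lost the call; 9 of 194 refits of uncalled differences gained one. The number of member regions called in LSD1i against Vehicle was 6, and 1 under depth scaling, 3 with uncalled libraries set to their smallest pileup, and 3 to 5 with 1 library left out. In Combo against Vehicle it was 5, then 2, 3 and 3 to 5. In Combo against LSD1i it was 0, and 1 when only the libraries of the comparison were fitted. The cause of these changes was not tested, and fits with 1 library left out also held fewer libraries. At an FDR of 0.01, the authors' rows fell from 3 to 1 for LSD1i and from 5 to 4 for Combo. Of 5 AATC cores in the 3 promoters, AAATCA left 1 and TAAATCAC 0, being longer. Small uncalled differences changed sign: the Gfi1 region at 14.0 kb in LSD1i (-0.0389 to 0.392 with 1 library left out) and in Combo (0.201 under depth scaling, -0.236 to 0.195 with 1 library left out), the Gfi1 start in LSD1i (-0.0785 under depth scaling, -0.0763 with the smallest pileups) and in Combo (-0.00986 with the smallest pileups), and the Gfi1b gene body in 6MP (-0.116 under depth scaling). With the replicate block the counts of members called were 6 in LSD1i, 5 in Combo and 5 in LSD1-inhibited against not inhibited, and 0 in the other comparisons, as without it. Crossed pairing was added after seeing the data because the Combo and Vehicle deviations correlated at -0.34 and those of 6MP and Vehicle at -0.11. It gave 6 of 9 in Combo and 0 of 8 in 6MP. In all, 4183 regions opened and 6065 closed in Combo, against 1936 and 974 with the numbers as given. It joined libraries with the same name ending, R or none, so within a comparison it is the same split as the name endings. Among Vehicle, 6MP, CER and Combo, same-numbered deviations correlated positively where the endings match (Vehicle with CER 0.25, 6MP with Combo 0.14). They correlated negatively in every other pair of those groups. With name endings as a covariate, coded as R against all others, the counts were 5 in LSD1i and 6 in Combo. Limits: 2 libraries a group, summits rather than read totals, and no value where a library had no call, so faint regions and losses of peaks were not measured.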
